A study of Mus musculus with 6 samples.

Results

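The DEAD and DEAH box helicases are a family of RNA-dependent ATPases, and their genes carry Ddx and Dhx symbols. Members were taken from the platform annotation as genes with a Ddx or Dhx symbol followed by a number and with at least 1 probe set of that symbol alone. Ddx58, Dhx58 and Ddx60, which belong to antiviral RNA sensing, were left out. This gave 48 genes on 52 probe sets, out of 19943 genes tested, with 33 Ddx and 15 Dhx symbols. Ddx19a and Ddx3y were not analysed here.

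Total RNA was taken from sorted natural killer (NK) cells of mice, lymphocytes of innate immunity that lyse other cells and release cytokines. It was hybridised to 6 Affymetrix arrays. The IL-18 generated group (3 arrays) held cells isolated on NK1.1, kept overnight with both IL-18 (25 ng/ml) and IL-2 (300 IU), and sorted as CD11b negative and c-kit positive. The unstimulated group (3 arrays) held NK1.1 cells sorted as CD11b positive and c-kit negative, and both sorts kept live, NK1.1 positive, CD3 negative cells. IL-18 and the sort gate differ together between the groups, so they cannot be told apart in any change below. If the unstimulated cells lacked IL-2 or the overnight culture, these cannot be told apart from IL-18 and the gate either. The labels used here do not state whether the unstimulated cells were cultured or given IL-2, nor the strain and age of the mice. Each array held an independent preparation by the design text, but no label says how many animals went into one. The p-values measure the spread between these 6 arrays only.

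DEAD and DEAH box proteins use ATP to pull apart short RNA duplexes or to strip proteins from RNA. Most DEAD box proteins open a duplex locally without travelling along it, whereas DEAH box proteins move along a strand. Cells use them at nearly every step of an RNA's life, from ribosomal RNA processing in the nucleolus through splicing and nuclear export to translation and decay. Many are driven by partner proteins that carry a G-patch or an MIF4G domain. Lymphocytes that enter growth after stimulation are known to enlarge their nucleoli and to make more ribosomes.

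The promoters of 4 members are shown first, because so many members moved together and a shared sequence motif is one thing the members can be compared on. Each is the 250 bases before the start site, from RefSeq on GRCm38.p6, read 5′ to 3′ on the gene's own strand, with every CACGTG in capitals. CACGTG is the E-box bound by MYC and related factors. Ddx56 (chr11:6267730-6267979, minus strand) and Ddx1 (chr12:13249175-13249424, minus strand) had the largest increases and no such motif, while Dhx33 (chr11:71004433-71004682, minus strand) and Dhx35 (chr2:158794557-158794806, plus strand) also rose and hold it.
Ddx56: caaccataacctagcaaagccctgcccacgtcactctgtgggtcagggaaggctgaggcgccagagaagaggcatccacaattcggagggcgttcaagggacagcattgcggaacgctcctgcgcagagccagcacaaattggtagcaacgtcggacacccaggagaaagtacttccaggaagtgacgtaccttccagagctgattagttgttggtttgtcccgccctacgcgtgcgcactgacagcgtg
Ddx1: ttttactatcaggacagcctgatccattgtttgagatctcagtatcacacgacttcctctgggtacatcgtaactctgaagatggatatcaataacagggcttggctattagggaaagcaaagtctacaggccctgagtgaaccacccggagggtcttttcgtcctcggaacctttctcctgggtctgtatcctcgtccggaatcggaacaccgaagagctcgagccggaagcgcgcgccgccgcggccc
Dhx33: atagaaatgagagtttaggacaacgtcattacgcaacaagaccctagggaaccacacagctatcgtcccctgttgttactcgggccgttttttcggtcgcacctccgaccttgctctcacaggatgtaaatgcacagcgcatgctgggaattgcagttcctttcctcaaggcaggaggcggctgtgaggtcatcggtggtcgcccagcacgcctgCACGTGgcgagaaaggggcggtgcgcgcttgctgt
Dhx35: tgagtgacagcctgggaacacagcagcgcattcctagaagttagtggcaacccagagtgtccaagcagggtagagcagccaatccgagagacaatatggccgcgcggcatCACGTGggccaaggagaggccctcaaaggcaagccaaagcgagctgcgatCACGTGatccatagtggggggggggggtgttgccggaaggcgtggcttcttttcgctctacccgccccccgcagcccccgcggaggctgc

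In Dhx33 the motif begins 35 bases before the start site, and in Dhx35 its copies begin 140 and 90 bases before it. The RefSeq table held promoter windows of 300 bases, 250 before and 50 after the start, for 43 of the 48 members. CACGTG, which reads the same on both strands, stood in a window of 7 of them (16.3%), against 8.1% of all 27025 genes in the table. That table was not limited to the genes tested on the arrays, so its shares describe a different set of genes. The members with CACGTG were split over the outcome, with 3 of the 24 that rose (Dhx33, Ddx42 and Dhx35) and 4 of the other 19 (Dhx40, Ddx5, Ddx4 and Ddx25). The median change was 0.12 for members with CACGTG and 0.43 for those without, a difference that was not tested. The CCAAT box, searched as CCAAT on both strands, was in 51.2% of members with a window and in 41.1% of all genes. TGATGNAA, the core of the element bound by ATF4, was in 0 of the 43 members and in 4.5% of all genes, on either strand. No motif contains another, and a gene with several windows was counted once.

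The authors' deposited values were read as log2, a base that the sources used here do not state, and have the 6-array median of each probe set at 0. Such values show differences between arrays but no expression level, so a small change can also come from a member that neither group expresses. For a member whose groups did not overlap, 0 lies midway between the nearest arrays of the groups, unless it is the mean of several probe sets. Changes are log2 differences of group means, IL-18 generated minus unstimulated, given with their standard error (n = 3 arrays per group throughout). A member is said to have risen or fallen at an adjusted p below 0.05 in limma, adjusted by Benjamini-Hochberg over all 19943 genes.

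Most helicases that moved were higher in the IL-18 generated cells. Of the 48 members, 25 rose (52.1%), against 19.7% of all genes tested. Dhx8 alone fell, 1 of 48, against 16.7% of all genes, and 22 members did not pass. The median change of the members was 0.32, beside -0.06 for all genes. A change of at least 1 on the log2 scale was passed by Ddx56, Ddx1 and Ddx49, 3 of 48, against 3.62% of all genes, so most of these increases were smaller than 2-fold. No member fell by that much, where 3.24% of all genes did.

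The 3 IL-18 arrays lay above the 3 unstimulated arrays without overlap for 29 members, against 22.9% of all genes, and below them for 1, against 25.7%. Counted in either direction, 30 of 48 members had no overlap, against 48.6% of all genes. All 26 members that passed were among these 30, and passing with overlap was rare in general, at 0.547% of all genes. The other 4 were Dhx15, Ddx31, Ddx41 and Ddx54, whose groups did not overlap although they missed the threshold. They are 8.33% of members, against 12.7% of all genes. The 33 Ddx symbols gave 18 increases, 0 decreases and a median change of 0.48. The 15 Dhx symbols gave 7 increases, 1 decrease and a median of 0.30. The difference between these subfamilies was not tested.

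**Figure D1:**
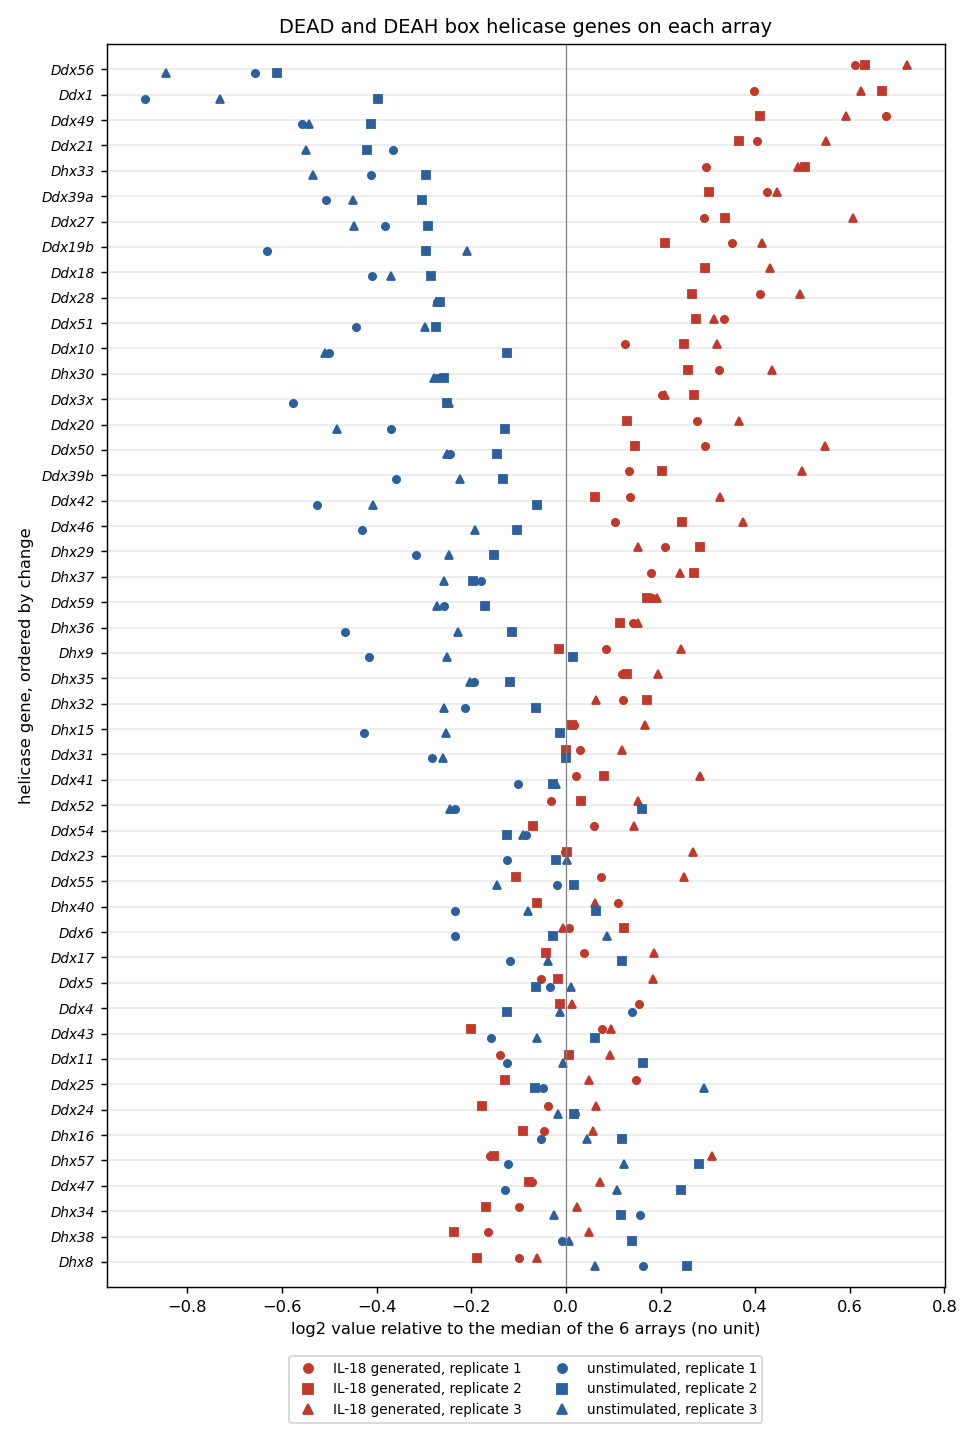
Log2 value of each of the 48 helicase genes (rows, ordered by change) on each array, relative to the median of the 6 arrays, with IL-18 generated arrays in red and unstimulated arrays in blue, and symbols for the replicates. The groups are apart for 29 members with IL-18 above and for Dhx8 with IL-18 below, and unstimulated replicate 2 often lies nearest the red symbols.

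The arrays of a group were not interchangeable for these genes. IL-18 replicate 3 held the highest IL-18 value for 36 of 48 members (75.0%), against 35.1% of all genes. Unstimulated replicate 2 held the highest unstimulated value for 35 members (72.9%), against 34.2% of all genes. The median over members was 0.12, 0.12 and 0.23 on IL-18 replicates 1, 2 and 3, and -0.25, -0.11 and -0.24 on unstimulated replicates 1, 2 and 3. Medians over all genes tested lay between -0.02 and 0.04 on the 6 arrays. Without unstimulated replicate 2, 29 members rose and the median change was 0.42. The share of all genes that rose in that fit was not counted, so the higher count is not shown to be particular to the helicases.

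Markers of other blood cells moved with the same contrast. All 10 measured monocyte and macrophage markers fell, with list means of -1.58 to -1.49 on the IL-18 arrays and 1.43 to 1.88 on the unstimulated arrays. One of them, Itgam, encodes the CD11b of the sort. All 10 neutrophil markers fell too, with list means of -1.30 to -0.999 on the IL-18 arrays, against 1.17, 2.56 and 1.16 on unstimulated replicates 1, 2 and 3. Unstimulated replicate 2, which stood highest here, is also the array with the highest unstimulated value for most helicases. Of 9 B cell markers 7 fell, with means of -0.25 to -0.09 on IL-18 arrays and 0.06 to 0.41 on unstimulated arrays. Of 10 T cell markers 4 rose, with means of 0.15 to 0.42 on IL-18 arrays and -0.28 to -0.07 on unstimulated arrays. Those that rose were Trat1 and the CD3 chain genes Cd3d, Cd3e and Cd3g, although both sorts kept CD3 negative cells. The other 6, among them Cd4 and Cd8a, did not pass. The 10 NK cell markers all fell (means of -0.88 to -0.66 on IL-18 arrays and 0.62 to 0.87 on unstimulated arrays). Among them Klrb1c, which encodes NK1.1, fell with -2.03 ± 0.11, although both sorts kept NK1.1 positive cells. Because the values hold no level, neither the presence of an NK marker nor the absence of another cell's marker can be read from them. The part of other cell types in the helicase changes was not tested, and in such bulk RNA fewer cells of a type and less RNA per cell cannot be told apart.

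The helicases of ribosome assembly held most of the largest increases. Of 16 members in this group, 10 rose, 0 fell and 6 did not pass; the median change was 0.58. Ddx56, a nucleolar protein whose yeast relative acts in large subunit assembly, had values of 0.61, 0.63 and 0.72 on IL-18 replicates 1, 2 and 3, against -0.66, -0.61 and -0.85 on the unstimulated ones. Both groups were tight and lay far apart, and its change of 1.36 ± 0.08, or 2.56-fold, was the largest of the 48 (limma adjusted p 8.17e-07). Ddx49, related to a yeast factor of the small subunit, stood at 0.68, 0.41 and 0.59 on the IL-18 arrays and -0.56, -0.41 and -0.54 on the unstimulated arrays. Every IL-18 array was again above every unstimulated one, with a change of 1.06 ± 0.09 (limma adjusted p 6.28e-06).

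Ddx21 and Ddx50 are nucleolar paralogs whose genes lie next to each other in the RefSeq table, and both rose. Ddx21, which acts in transcription and processing of ribosomal RNA, had 0.40, 0.37 and 0.55 on the IL-18 arrays and -0.37, -0.42 and -0.55 on the unstimulated arrays, a change of 0.89 ± 0.08. Ddx50 had 0.29, 0.15 and 0.55 on the IL-18 arrays and -0.25, -0.15 and -0.25 on the unstimulated arrays, a change of 0.54 ± 0.10. The IL-18 arrays of Ddx50 were spread more widely, with replicate 3 highest. The 95% intervals of the changes were 0.70 to 1.07 for Ddx21 and 0.31 to 0.77 for Ddx50, and the difference between these genes was not tested.

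The DEAH box members of the nucleolus rose as well. Dhx33, which takes part in transcription of ribosomal RNA genes and whose promoter is shown above, had 0.30, 0.51 and 0.49 on the IL-18 arrays and -0.41, -0.30 and -0.53 on the unstimulated arrays, a change of 0.85 ± 0.09. Dhx37, which frees a small nucleolar RNA from the early small subunit, had 0.18, 0.27 and 0.24 on the IL-18 arrays and -0.18, -0.20 and -0.26 on the unstimulated arrays. Its change of 0.44 ± 0.07 was smaller, but the arrays within each group lay close together. Ddx27, a large subunit factor in yeast, had 0.29, 0.34 and 0.61 on the IL-18 arrays and -0.38, -0.29 and -0.45 on the unstimulated arrays, a change of 0.79 ± 0.10. For these 3 genes the limma adjusted p was at most 0.000679.

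Ddx18, Ddx51 and Ddx10, whose yeast relatives act in early ribosomal RNA processing or large subunit assembly, completed the increases with changes of 0.69 ± 0.08, 0.65 ± 0.08 and 0.61 ± 0.11. Ddx31, Ddx52, Ddx54, Ddx55, Ddx24 and Ddx47, also ribosome assembly factors by their yeast relatives, did not pass. Their changes ran from 0.23 for Ddx31 to -0.10 for Ddx47. The 95% intervals reached up to 0.13 for Ddx47 and 0.12 for Ddx24, each below the lower bound of 0.28 for Dhx37, the smallest increase in the group that passed. The upper bounds of the other 4, from 0.32 for Ddx54 to 0.43 for Ddx31, lay above it. Ddx31 and Ddx52 passed without unstimulated replicate 2 (changes of 0.32 and 0.29, limma adjusted p 0.00927 and 0.0205), which made the group's count 12 of 16.

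**Figure D2:**
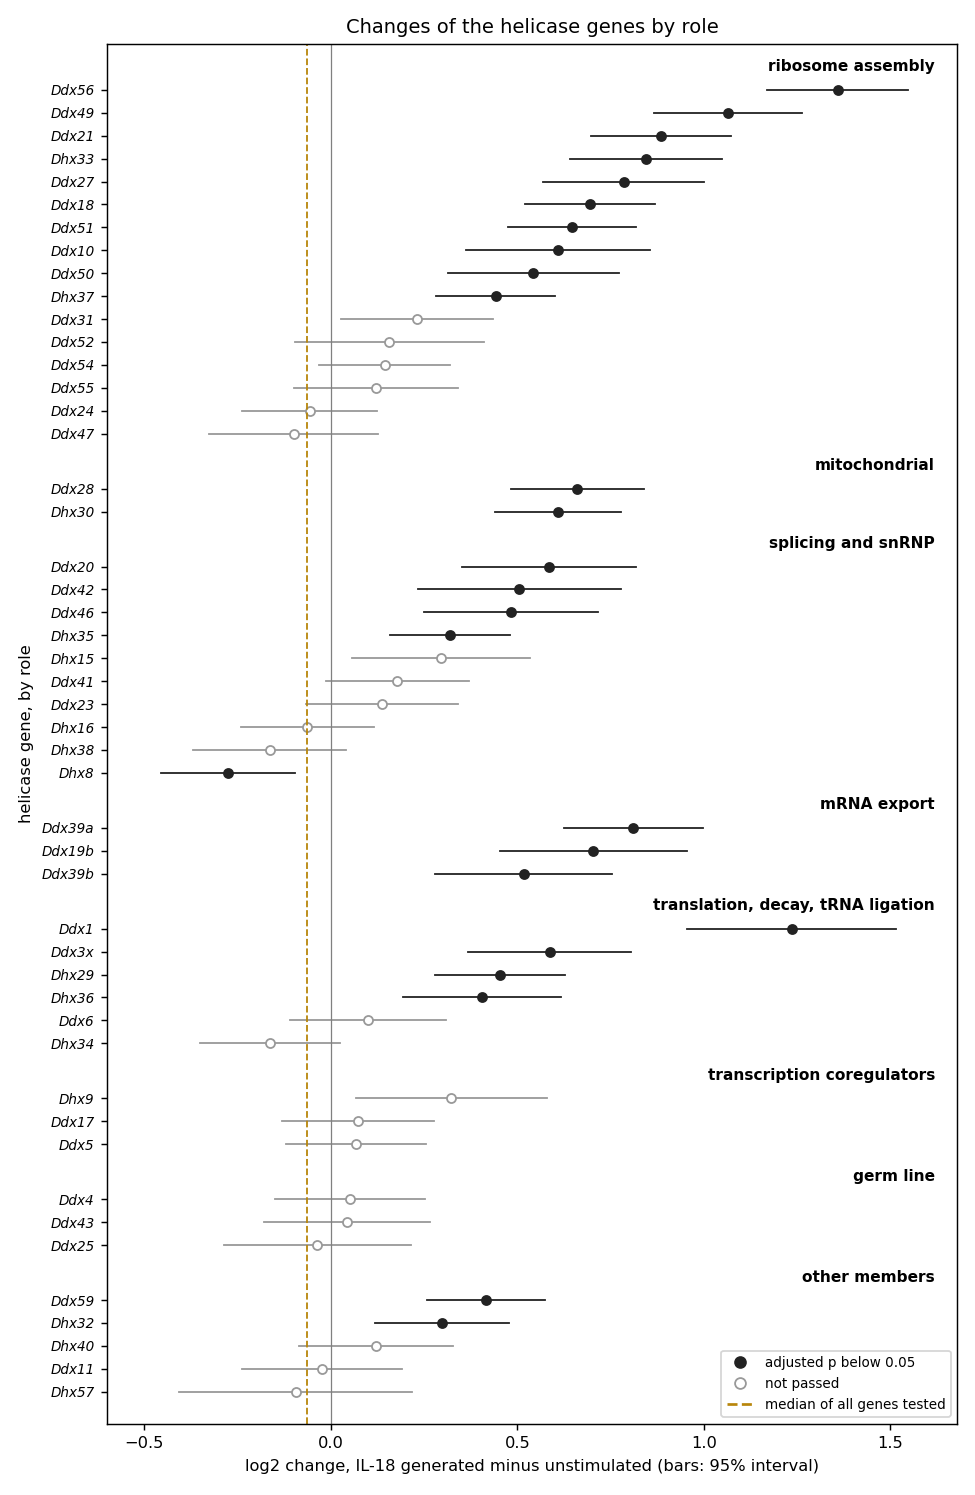
Log2 change (IL-18 generated minus unstimulated, horizontal axis) of each helicase gene with its 95% interval, grouped by role, with filled points for an adjusted p below 0.05 and the dashed line at the median of all genes tested (-0.06). Ribosome assembly runs from 1.36 for Ddx56 to -0.10 for Ddx47, and Dhx8 is the only filled point left of 0.

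Both mitochondrial members rose. Ddx28, which helps build the large subunit of the mitochondrial ribosome, had 0.41, 0.27 and 0.50 on the IL-18 arrays and -0.27 on each of the 3 unstimulated arrays, a change of 0.66 ± 0.08. Dhx30, found with it in mitochondrial RNA granules, had a change of 0.61 ± 0.08. The limma adjusted p was 8.63e-05 for Ddx28 and 0.000104 for Dhx30.

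Of the splicing helicases that passed, all but Dhx8 rose, where 19.7% of all genes were higher and 16.7% lower. Of 10 members, 4 rose, 1 fell and 5 did not pass; the median change was 0.24. Ddx20, which belongs to the SMN complex that loads Sm proteins on small nuclear RNAs, had 0.28, 0.13 and 0.37 on the IL-18 arrays and -0.37, -0.13 and -0.48 on the unstimulated arrays, a change of 0.59 ± 0.10. Ddx42 and Ddx46, which act at the branch point in early spliceosomes, rose by 0.51 ± 0.12 and 0.48 ± 0.10. Dhx35, found in catalytic spliceosomes, rose by 0.32 ± 0.07.

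The spliceosome's late steps gave the single decrease. Dhx8, which releases the finished mRNA from the spliceosome, had -0.10, -0.19 and -0.06 on the IL-18 arrays and 0.16, 0.25 and 0.06 on the unstimulated arrays. Every IL-18 array was below every unstimulated one, but IL-18 replicate 3 and unstimulated replicate 3 lay close together. The change was -0.28 ± 0.08 (limma adjusted p 0.0208). The call ended without IL-18 replicate 1 (adjusted p 0.0524) or 2 (0.0908) and without unstimulated replicate 1 (0.0537), so it needed each of these arrays. Dhx38 and Dhx16, which act before it in the splicing cycle, did not pass at -0.16 ± 0.09 and -0.06 ± 0.08. Ddx41 and Ddx23, at 0.18 ± 0.09 and 0.14 ± 0.09, did not pass either.

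Dhx15, which takes spent spliceosomes apart and also serves ribosome assembly, lay just outside the threshold at 0.30 ± 0.11 (limma adjusted p 0.0534). It passed with robust variances (0.0461), with array weights (0.0187) and without unstimulated replicate 2 (change 0.41, adjusted p 0.00631). It did not pass with quantile normalization (limma adjusted p 0.0649), with arrays centred on their median (0.0509) or without any other array (0.0818 to 0.191).

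All 3 measured mRNA export members rose. Ddx39a and Ddx39b are close paralogs that load export factors on mRNA. Ddx39a had 0.43, 0.30 and 0.45 on the IL-18 arrays and -0.51, -0.30 and -0.45 on the unstimulated arrays, a change of 0.81 ± 0.08. Ddx39b had 0.13, 0.20 and 0.50 on the IL-18 arrays and -0.36, -0.13 and -0.22 on the unstimulated arrays, a change of 0.52 ± 0.11. Neither pair of groups overlapped, and Ddx39b had its widest spread among the IL-18 arrays. Ddx19b, which remodels mRNA at the nuclear pore, had 0.35, 0.21 and 0.41 on the IL-18 arrays and -0.63, -0.30 and -0.21 on the unstimulated arrays, a change of 0.70 ± 0.11 with unstimulated replicate 1 lowest. Probes in stretches that Ddx39a and Ddx39b share could read both genes, which leaves their separate values uncertain. The same could hold for other paralogs, such as Ddx19b with Ddx19a, Ddx3x with Ddx3y and Ddx5 with Ddx17. Probe sequences were not examined. For the 3 export members the limma adjusted p was at most 0.00299.

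Among cytoplasmic members of translation, decay and tRNA ligation, 4 of 6 rose, 0 fell and 2 did not pass; the median change was 0.43. Ddx1, a subunit of the tRNA ligase complex, had 0.40, 0.67 and 0.62 on the IL-18 arrays and -0.89, -0.40 and -0.73 on the unstimulated arrays. Its groups were wide apart, although each spread more than those of Ddx56, and the change was 1.24 ± 0.13, or 2.35-fold (limma adjusted p 2.51e-05). Ddx3x, which opens structured leaders for translation initiation, had 0.20, 0.27 and 0.21 on the IL-18 arrays and -0.58, -0.25 and -0.25 on the unstimulated arrays, a change of 0.59 ± 0.10. Unstimulated replicate 1 lay well below the rest there, and without it the change was 0.48 and still passed.

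Dhx29, a scanning factor of translation initiation, rose by 0.45 ± 0.08 and Dhx36, which unwinds G-quadruplexes, by 0.41 ± 0.10. Ddx6, which joins repressed mRNAs to the decapping machinery, had a change of 0.10 ± 0.09 with a 95% interval of -0.11 to 0.31. Dhx34, a factor of nonsense-mediated decay, had -0.16 ± 0.08 with an interval of -0.35 to 0.02. Neither passed, and their groups overlapped.

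The transcription coregulators did not pass. Ddx5 and Ddx17 are paralogs that act in transcription, splicing and microRNA processing. Ddx5 had -0.05, -0.02 and 0.18 on the IL-18 arrays and -0.03, -0.06 and 0.01 on the unstimulated arrays, and Ddx17 had 0.04, -0.04 and 0.19 on the IL-18 arrays and -0.12, 0.12 and -0.04 on the unstimulated arrays. The groups of both genes overlapped, and the 95% intervals of their changes, -0.12 to 0.25 and -0.13 to 0.28, lay below the change of every ribosome assembly member that passed. Dhx9, which unwinds RNA in transcription and at repeats, lay just outside the threshold with 0.32 ± 0.12 (limma adjusted p 0.0508) and overlapping groups. It passed with robust variances (0.0427), array weights (0.0223), arrays centred on their median (0.0491), and without IL-18 replicate 2 (0.0498) or unstimulated replicate 2 (0.00676). It did not pass with quantile normalization (limma adjusted p 0.0709) or without any other array (0.0932 to 0.187).

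Helicases of the germ line showed no change that passed. Ddx4, the mouse relative of fly Vasa, Ddx25 and Ddx43 had changes between -0.04 and 0.05, and their groups overlapped. Among the remaining members, Ddx59 had 0.18, 0.17 and 0.19 on the IL-18 arrays and -0.26, -0.17 and -0.27 on the unstimulated arrays, the tightest IL-18 values of any member given here array by array, and a change of 0.42 ± 0.07. Dhx32 rose by 0.30 ± 0.08 (limma adjusted p 0.0143), a call that ended without IL-18 replicate 2 (0.0627) or unstimulated replicate 3 (0.0546). Dhx40, Ddx11 (a DNA helicase of sister chromatid cohesion) and Dhx57 did not pass, with changes of 0.12, -0.02 and -0.09.

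For 4 members, 2 probe sets carried the symbol, and the gene value is their mean. The probe sets of Ddx18 both rose, by 0.47 ± 0.08 and 0.92 ± 0.09, as did those of Ddx3x, by 0.78 ± 0.11 and 0.39 ± 0.10, so the size of the change but not its direction depended on the probe set. Those of Ddx54 disagreed. Its first probe set had 0.20, 0.15 and 0.24 on the IL-18 arrays and -0.15, -0.26 and -0.32 on the unstimulated arrays, a change of 0.45 ± 0.07 that passed when probe sets were tested singly (limma adjusted p 0.0015). Its other probe set, which the annotation ties to a single cDNA, had -0.08, -0.29 and 0.04 on the IL-18 arrays and -0.02, 0.02 and 0.14 on the unstimulated arrays, with a change of -0.16 ± 0.10 (adjusted p 0.255). The mean of 0.14 ± 0.08 did not pass, so whether Ddx54 counts with the risen members depends on how its probe sets are joined. The probe sets of Ddx5, at 0.21 ± 0.08 and -0.07 ± 0.09, differed in sign and neither passed.

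**Figure D3:**
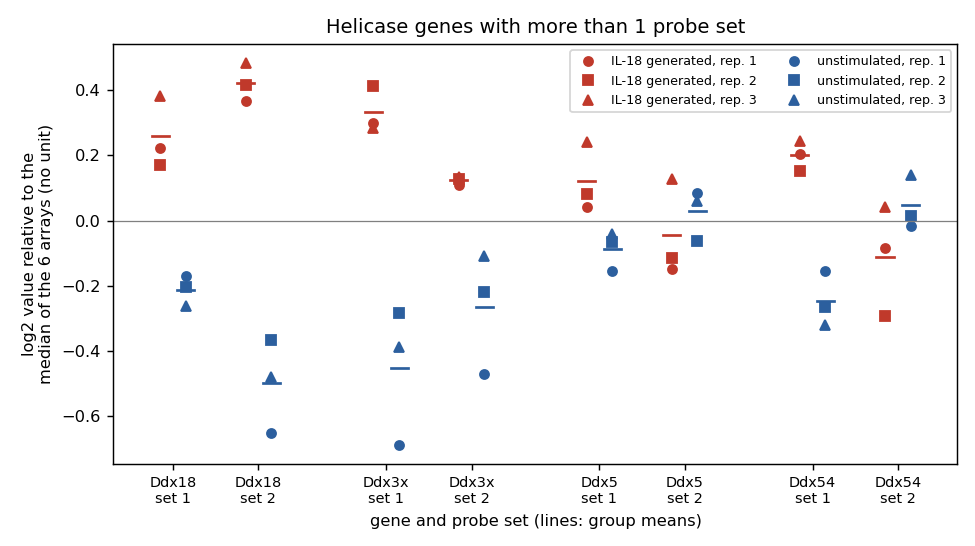
Log2 value of each probe set, relative to the median of the 6 arrays, for the 4 helicase genes with 2 probe sets, with IL-18 generated arrays left (red) of unstimulated arrays (blue) and lines at the group means. Both probe sets of Ddx18 and Ddx3x have the IL-18 arrays above, whereas the probe sets of Ddx54 differ in direction (0.45 and -0.16).

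Family members named by other symbols and the known partners of these helicases were looked up as further lists. Of 6 family members under other symbols, 3 rose, 0 fell and 3 did not pass. The 3 that rose were the eIF4A genes: Eif4a1, the helicase of cap-dependent initiation, by 0.81 ± 0.08, Eif4a3, the anchor of the exon junction complex, by 0.61 ± 0.09, and Eif4a2 by 0.57 ± 0.08. Of 21 measured G-patch cofactors, 8 rose, 1 fell and 12 did not pass; the median change was 0.08. Nkrf and Pinx1, nucleolar proteins that activate Dhx15 in human cells, rose by 1.52 ± 0.08 and 1.20 ± 0.08. Rbm5, a splicing regulator, fell with -0.30 ± 0.08.

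Among 13 measured cofactors and partners of eIF4A-type helicases, 6 rose, 1 fell and 6 did not pass; the median change was 0.20. Rbm8a, a core protein of the exon junction complex, rose by 0.82 ± 0.08 and Nom1, a nucleolar MIF4G protein, by 0.50 ± 0.10. Pdcd4, which inhibits eIF4A, fell with -1.21 ± 0.11, or 0.433-fold (limma adjusted p 1.14e-05). Most measured partners of Ddx39b and of Ddx20 rose. In the TREX export complex 7 of 10 rose, 0 fell and 3 did not pass (median change 0.50). Thoc1 was 2.15-fold higher and Alyref rose by 0.67 ± 0.08. In the SMN complex 6 of 8 rose, 0 fell and 2 did not pass (median change 0.64). Gemin5, which recognises small nuclear RNAs, rose by 1.07 ± 0.08 and Gemin6 by 0.76 ± 0.09.

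Of 9 measured P-body partners of Ddx6, 0 rose, 1 fell and 8 did not pass; the median change was 0.07. Xrn1, the exonuclease that degrades decapped mRNA, fell with -0.52 ± 0.12 (limma adjusted p 0.00543). No difference between these lists, or between the roles of the helicases, was tested, and against each stand the shares of all genes, 19.7% higher and 16.7% lower.

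**Figure D4:**
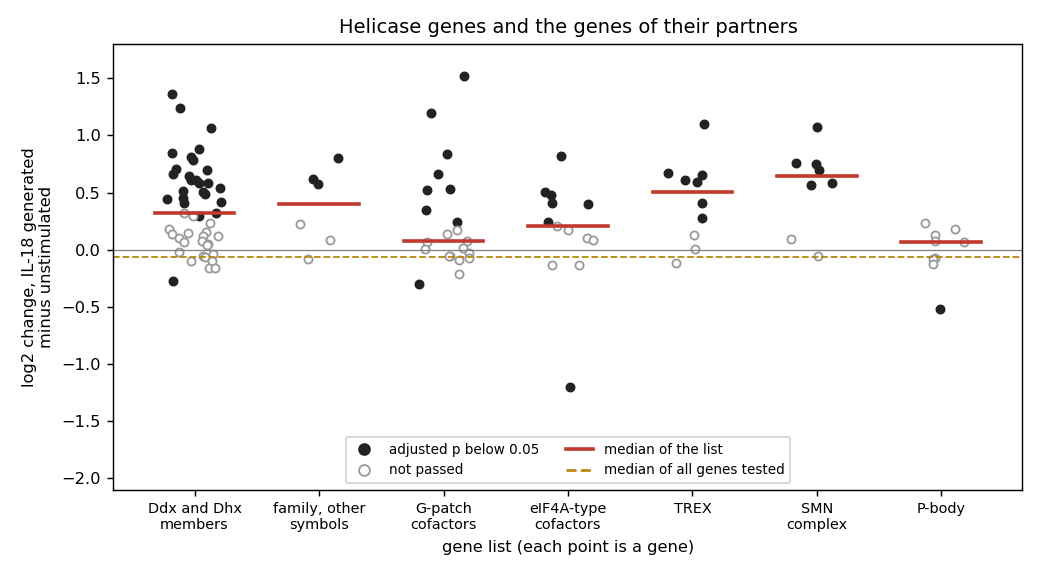
Log2 change (IL-18 generated minus unstimulated) of the 48 helicase genes and of each gene in 6 lists of relatives and partners, with filled points for an adjusted p below 0.05, red lines at list medians and the dashed line at the median of all genes tested. The SMN and TREX lists have medians of 0.64 and 0.50, P-body partners 0.07, and the lowest point is Pdcd4 at -1.21.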

How the data were processed

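Expression was measured in 3 IL-18 generated and 3 unstimulated samples of mouse NK cells on 1-colour Affymetrix arrays, labelled with biotin per the labels' protocols. The authors deposited processed values for 28815 probe sets, each centred on its median over the 6 arrays (largest row median 5e-07). The sources used here do not state how they were summarized and normalized, or their log base. The authors' values were read as log2: the widest span within 1 probe set, 7.77, exceeds what log10 values of a 16-bit scanner allow. Natural logs were not excluded. They would make every change larger on a log2 scale and leave the limma p-values as they are.

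Of the probe sets, 21788 had 1 symbol in the platform annotation, 1597 several and 5430 none, and only the first were used, averaged per gene. All 19943 genes were fitted with limma 3.58.1 in R 4.3.3 (lmFit, eBayes, no covariate). The procedure was tested on simulated data. Tables and figures were made in Python 3.11.15 with pandas 2.3.3, numpy 2.4.6 and matplotlib 3.10.9. The number of arrays limits the precision.

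Members and lists were chosen with earlier results of these data known. Genes named array by array followed a rule: a change of at least 1, the 8 largest increases and decreases that passed, the largest in each role, paralog pairs, and members with disagreeing probe sets. Partner lists name up to 2 genes per direction, and Eif4a2 was added after its value was seen to complete a count. Alternatives were variance options, normalization, array weights, call rules, single probe sets, the replicate block and leaving out each array.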

Additional observations from a re-analysis of the deposited data

How the results depend on the processing

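No helicase that passed changed sign under any alternative run, but most of these runs could not have shown such a change. The groups of all 26 did not overlap, so leaving out or weighting arrays could not reverse a sign. Robust variances, the treat test and the replicate block leave the change itself as it is. With quantile normalization all 48 calls stayed as reported. Leaving out each array in turn gave 24 to 29 members higher, 0 to 1 lower, 10 to 12 higher in ribosome assembly, 4 to 5 higher in splicing and a median change of 0.29 to 0.42, the highest without unstimulated replicate 2. The decrease, Dhx8 alone, was lost in 3 of these 6 fits, and 24 of the 26 calls held in all 6. Shares of all genes were counted for the main fit alone, so counts from the other fits in this section stand without that comparison. Demanding a log2 change of at least 1 left 3 higher and 0 lower, with 2 higher in ribosome assembly and 0 in splicing. Limma's treat test against a change of 0.5 left 6 higher and 0 lower, with 4 higher in ribosome assembly and 0 in splicing, since it asks for larger changes.

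Deviations of same-numbered arrays from their group means had r of 0.24, 0.01 and -0.02 over genes. Differently numbered arrays gave r from -0.293 to 0.248. With 3 arrays per group these values are bound to each other, so they cannot settle whether the numbers pair the samples. With the replicate number as a block, 27 members were higher and 1 lower, Dhx9 and Dhx15 being gained. Array weights, lowest for unstimulated replicate 2 (0.46, against 0.881 to 1.788 for the other 5 arrays), gave 28 higher, and robust variances gave 27. With single probe sets as features 25 rose and 1 fell, counting a gene only where all its probe sets passed. The variance trend and the filter on dim genes could not be run, because centred values hold no level, and for the same reason signal over background is unknown. Dixon's test for single outlying values was not applied to groups of 3.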
